A study of Mus musculus with 3 samples.

Results

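Hematopoietic stem cells (HSCs) are isolated by the proteins on their surface, and the mRNAs of 10 of these markers were read here in HSCs of 3 genotypes. The genes were Kit, Ly6a, Slamf1, Cd48, Flt3, Cd34, Itga2b, Procr, Tek and Esam. Every probe that the array design names for one of them was taken, which gave 16 of the 56600 probes and 10 of the 37323 genes measured. Kit had 3 probes, Slamf1, Cd48, Flt3 and Cd34 had 2 each, and the other 5 genes had 1. Of these probes, 13 were designed on a RefSeq mRNA, whereas 2 of Kit and 1 of Flt3 were designed on cDNA clones.

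The study hybridized long-term HSCs from the bone marrow of C57BL/6J mice to 1-color Agilent arrays, with 1 array for each of WT, AtmsKO and Atmp38dKO. The mutants carried CAG-CreERT2, a tamoxifen-inducible Cre under a ubiquitously active promoter, with loxP-flanked Atm alleles (AtmsKO) or loxP-flanked Atm and p38α alleles (Atmp38dKO), so deletion was not limited to HSCs. According to the methods, control mice also received tamoxifen and carried loxP-flanked alleles but had no Cre. Cre activity itself therefore differed between WT and both mutants. The labels give an age of 11 weeks and the gate CD150+CD48-Flt3-CD34- within LSK cells (lineage-, Sca-1+, c-Kit+). The series text instead puts tamoxifen at about 5 weeks and the analysis 4 weeks afterwards and names CD34 and Flt3 without CD150 or CD48, and the methods add CD41-. How many mice contributed to an array is not given in the sources used here. With a single array per genotype there was no replicate, no test was made, and each difference compares arrays and not conditions.

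The gate combines receptors and adhesion molecules. c-Kit (Kit) is the receptor for stem cell factor, and Sca-1 (Ly6a) is a GPI-anchored protein of the Ly6 family. Together they define the LSK fraction, which holds stem cells and multipotent progenitors. CD150 (Slamf1) and CD48 belong to the SLAM family of immune receptors and separate HSCs from progenitors, while Flt3 and CD34 appear on the surface as mouse HSCs give way to progenitors. An array reads mRNA and the gate reads surface protein, so a marker that is absent from the gated surface can still give an array signal. EPCR (Procr), Tie2 (Tek) and ESAM are further HSC surface proteins that the gate did not use, and endothelial cells share all of them.

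The probes of Kit, Slamf1 and Cd48 are shown because the readings of a gene turned on which of its probes was read, or, for Cd48, because both probes moved together, and the Procr probe is shown because it was the 1 member probe that read lower on the Atmp38dKO array than on both others by more than the scanner error described below. Each line gives bases 16 to 45 of the 60-base probe from the deposited files, 5′ to 3′, all in lower case since no base is singled out.
Kit mRNA probe: ggccacaccattgagaattttgtcttggat
Kit clone probe A: taaaatttagatcttagcagctaaaactaa
Kit clone probe B: tctgggaaatgtagttatagttgggagagg
Slamf1 mRNA probe A: ataatgatgaaaagacaaggtaaatcaaat
Slamf1 mRNA probe B: tgcttcaaacaacagaatgaaatccatcca
Cd48 mRNA probe A: agcagcaagaacgacacagtgtacttcact
Cd48 mRNA probe B: ctttacaaagatttcaaatcaaccttttaa
Procr mRNA probe: ggcattcaaaacatcttactaaataaaaga

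On the mm9 build the Kit mRNA probe lies at chr5:76052394-76052453 on the plus strand. The Kit clone probes lie at chr5:76048202-76048261 and chr5:76048262-76048321, end to end on the same strand. The Slamf1 probes lie at chr1:173718133-173722451 and chr1:173730343-173730402, and the first spans 4319 bases of genome for 60 bases of probe, so it bridges a gap as a probe over a splice junction does. The Cd48 probes lie at chr1:173629721-173629780 and chr1:173635201-173635260, and the Procr probe at chr2:155580945-155581004. All of these are on the plus strand. No mm9 annotation was used here, so whether a probe lies in a coding exon, a UTR or an intron is not given.

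The arrays differed in brightness. Between 68.9% and 77.7% of all probes were well above background, with 75th percentiles of signal of 102 (WT), 96.2 (AtmsKO) and 118 (Atmp38dKO). Both Atm probes were lower on the AtmsKO array than on WT, with log2 differences of -1.79 and -2.37. On the third array the Atm probes differed from WT by -0.22 and -1.07, and the probes of Mapk14, which encodes p38α, differed by 0.18 and 0.01. Mapk14 was therefore not lower on that array, which is called the Atmp38dKO-labelled array from here on. The Atm probes, both low on AtmsKO, were higher on the Atmp38dKO-labelled array than there, by 1.57 and 1.30. Atm mRNA was thus not lowered there to the extent seen on AtmsKO, and why was not tested. Whether the probes lie in the deleted parts of the genes is not given in the sources used here. A Mapk14 probe outside the deleted part might not show a deletion.

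All 16 marker probes were well above background on all 3 arrays. Signals below are processed signals in scanner units before scaling, in the order WT, AtmsKO and labelled Atmp38dKO. Log2 differences are taken after each array was scaled to its 75th percentile, with the scanner's own error of the spot carried into the difference (±). That error is an estimate by the scanner software and not a measured spread. It was 10% to 13.1% of a marker's signal, and close to 10% for every bright probe. It concerns the reading of a spot alone, and leaves out the spread between mice, sorts and labelings. Among probes printed repeatedly, the measured SD between spots had a median of 0.05 log2 units on each array. A difference of more than 2 such errors is called beyond the scanner error, a threshold chosen after the files were seen.

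**Figure D1:**
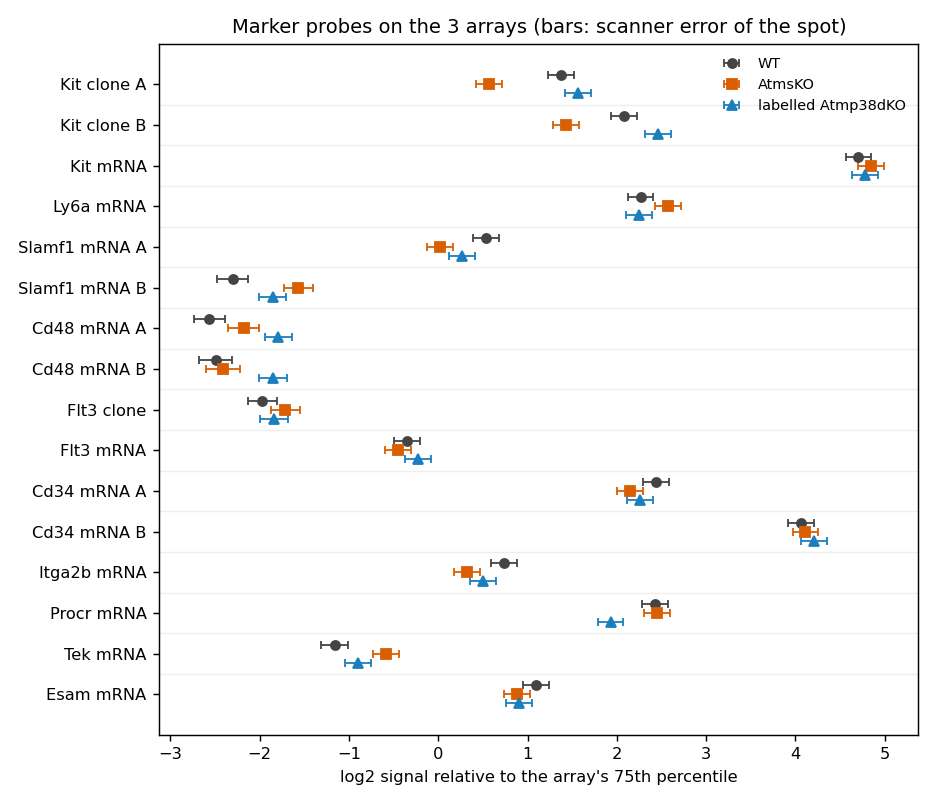
Log2 signal of each marker probe relative to the array's 75th percentile (horizontal axis) on the WT (circles), AtmsKO (squares) and labelled Atmp38dKO (triangles) arrays, with bars for the scanner error of the spot. The arrays lie within 1.03 log2 units of each other for every probe, and the range is widest for the Kit clone probes.

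The markers that the gate requires came first. The Kit mRNA probe read 2652, 2773 and 3248. Against WT, AtmsKO differed by 0.14 ± 0.20 and the Atmp38dKO-labelled array by 0.08 ± 0.20, and the difference was -0.06 ± 0.20 between both mutants. After scaling, the 3 arrays were not separated by the scanner error, and no other marker probe had as narrow a range (0.14).

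Both Kit clone probes gave another picture. Clone probe A read 264, 143 and 349, and clone probe B read 430, 260 and 651. In both, AtmsKO was lowest and the Atmp38dKO-labelled array highest. Against WT, the AtmsKO array was lower by more than the scanner error, with differences of -0.81 ± 0.20 and -0.65 ± 0.20, whereas the Atmp38dKO-labelled array differed by 0.19 ± 0.20 and 0.38 ± 0.20, within it. Between both mutants the differences were 1.00 ± 0.20 and 1.03 ± 0.20. Clone probe B was 2.04-fold higher, and clone probe A, at 2.00-fold rounded from just below, fell short of the 2-fold threshold. With normexp, an alternative background correction, they differed by 0.85 and 0.93, and neither reached 2-fold. The probes sit end to end on 1 clone and are not independent of each other. The Kit mRNA probe did not share this pattern, and which transcript the clone represents was not tested.

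Ly6a, read by 1 probe, gave 488, 573 and 559. It was highest on the AtmsKO array after scaling, by 0.31 ± 0.20 over WT, while the Atmp38dKO-labelled array and WT differed by -0.02 ± 0.20. The difference between both mutants was -0.33 ± 0.20. None of these passed the scanner error.

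Slamf1, which encodes CD150, had probes that disagreed. Probe A read 147, 97.2 and 142, and was lowest on the AtmsKO array. Probe B read 20.6, 32.5 and 32.5, and was lowest on the WT array. For AtmsKO against WT the differences were -0.52 ± 0.21 and 0.74 ± 0.23, both beyond the scanner error and in opposite directions. For the Atmp38dKO-labelled array against WT they were -0.27 ± 0.20 and 0.45 ± 0.23, and between both mutants 0.25 ± 0.21 and -0.29 ± 0.22, again opposite in sign but within the scanner error. With normexp, probe B differed by 0.22 and 0.05 from WT. No direction can be given for Slamf1 mRNA in any comparison.

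The markers that the gate leaves out followed. Cd48, the GPI-anchored ligand of CD2 and CD244, was near the low end of the measured signals. Probe A read 17.2, 21.2 and 34.0, and probe B read 18.0, 18.0 and 32.6. On both probes the Atmp38dKO-labelled array was highest, while WT and AtmsKO were not separated by the scanner error. Its difference from WT was 0.77 ± 0.23 for probe A and 0.64 ± 0.24 for probe B, which is 1.71-fold and 1.56-fold higher. Against AtmsKO the differences were 0.39 ± 0.23 and 0.56 ± 0.24, the second beyond the scanner error. The WT signals were 3.22 and 3.38 times the lowest signal counted as well above background on that array, so these folds rest on few scanner units. With normexp the differences from WT shrank to 0.17 and 0.07.

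Flt3, the receptor tyrosine kinase for Flt3 ligand, was read by an mRNA probe at 79.4, 70.3 and 101 and by a clone probe at 25.8, 29.4 and 32.9. Against WT, the AtmsKO array differed by -0.10 ± 0.21 and 0.26 ± 0.23, and the Atmp38dKO-labelled array by 0.13 ± 0.21 and 0.13 ± 0.22. Between both mutants the values were 0.23 ± 0.21 and -0.13 ± 0.22. Neither probe separated any pair of arrays by more than the scanner error.

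Cd34, which encodes a sialomucin, gave clear signals although the gate takes CD34- cells. Probe A read 551, 427 and 566, and probe B read 1694, 1666 and 2185. Against WT, AtmsKO differed by -0.29 ± 0.20 and 0.05 ± 0.20, and the Atmp38dKO-labelled array by -0.18 ± 0.20 and 0.15 ± 0.20. Both probes differed by 0.11 ± 0.20 and 0.10 ± 0.20 between both mutants. All of these were within the scanner error.

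Itga2b encodes CD41, integrin αIIb, which pairs with the β3 chain and is best known from platelets. Its probe, which spans 209 bases of genome, read 169, 120 and 167. It was lower on the AtmsKO array than on WT by more than the scanner error, with a difference of -0.41 ± 0.20 (1.33-fold lower). The array labelled Atmp38dKO lay between, at -0.23 ± 0.20 against WT and 0.18 ± 0.20 against AtmsKO. Of 16 genes listed as megakaryocyte markers, all were well above background on both mutant arrays and 15 on the WT array. Their summed signal before scaling was 4206, 5332 and 4995. Without Pf4 the other 15 summed to 3186.5, 2966 and 3460, so the higher AtmsKO sum rested on that gene. The part of such cells in the Itga2b values was not tested, and in a sorted bulk sample fewer cells of a type and less RNA per cell cannot be told apart.

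Procr, the receptor of protein C, was the marker outside the gate with a difference beyond the scanner error on the Atmp38dKO-labelled array. Its probe read 546, 525 and 449. WT and AtmsKO lay together, with a difference of 0.02 ± 0.20, and the Atmp38dKO-labelled array was lower than both. The differences were -0.50 ± 0.20 against WT and -0.52 ± 0.20 against AtmsKO, which is 1.41-fold and 1.43-fold lower and beyond the scanner error in each case. Both comparisons share the Atmp38dKO-labelled array.

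Tek, the angiopoietin receptor, read 45.4, 64.2 and 63.2. It was higher on the AtmsKO array than on WT by 0.58 ± 0.21, beyond the scanner error, and by 0.34 with normexp. The array labelled Atmp38dKO lay between, at 0.26 ± 0.21 over WT and -0.31 ± 0.21 against AtmsKO. Esam, an adhesion molecule of tight junctions, read 217, 177 and 221. Its differences were -0.22 ± 0.20, -0.19 ± 0.20 and 0.03 ± 0.20 in the order AtmsKO against WT, labelled Atmp38dKO against WT, and labelled Atmp38dKO against AtmsKO, all within the scanner error.

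Endothelial cells also express these genes. Of 17 endothelial marker genes, 13, 14 and 13 were well above background (WT, AtmsKO and Atmp38dKO-labelled array). Their list summed to 2640, 2751 and 2727 before scaling, on arrays with 75th percentiles of 102, 96.2 and 118. These sums therefore do not rank the arrays. After scaling, the list's median difference was 0.08 for AtmsKO and -0.05 for the Atmp38dKO-labelled array against WT, and -0.29 between both mutants. Cdh5 and Ptprb, which mark endothelium, were not above background on any array. Kdr, the VEGF receptor, read 5.88, 114 and 18.1, and was the member of that list with the widest range. Its WT value was near the lowest signal counted as well above background there (5.33). No other Kdr probe was well above background on both arrays of any comparison. Procr was lowest on the Atmp38dKO-labelled array, Tek on the WT array and Esam on the AtmsKO array, and the part of endothelial RNA in their values was not tested.

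**Figure D2:**
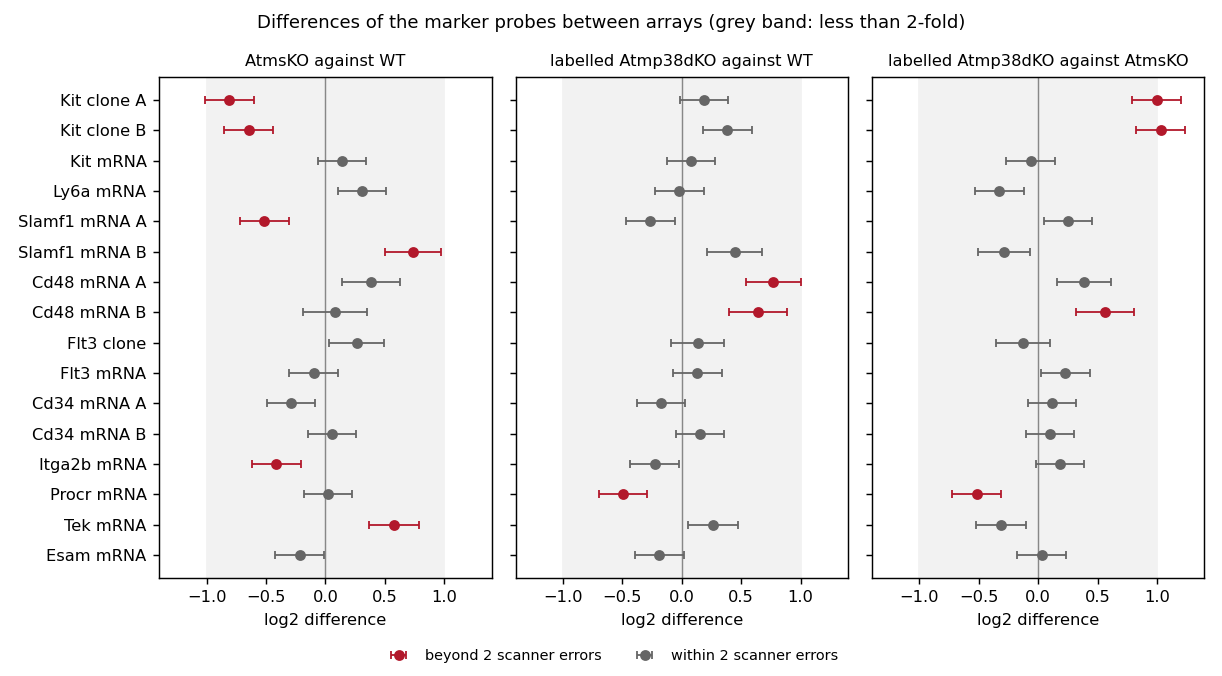
Log2 difference of each marker probe (horizontal axis) for AtmsKO against WT, labelled Atmp38dKO against WT and labelled Atmp38dKO against AtmsKO, with bars for the combined scanner error, red where the difference exceeds 2 such errors and a grey band where it is under 2-fold. The red points are Kit clone, Slamf1, Itga2b and Tek probes in the first panel, Cd48 and Procr in the second, and Kit clone, Cd48 probe B and Procr in the third.

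Over all marker probes, few differences were large. For AtmsKO against WT, 0 of 16 marker probes were at least 2-fold higher and 0 lower, whereas 4.29% and 4.74% of all probes tested were. The counts were again 0 and 0 for the Atmp38dKO-labelled array against WT, beside 4.69% and 5.07% of all probes. For the Atmp38dKO-labelled array against AtmsKO, 1 marker probe was at least 2-fold higher (Kit clone probe B) and 0 were lower, beside 4.39% and 4.07%. With 16 probes, shares of this size amount to less than 1 probe in a direction, so the counts do not set the markers apart from the array.

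Differences beyond the scanner error were more frequent, in the markers and on the array. For AtmsKO against WT, 2 probes were higher (Slamf1 probe B and Tek) and 4 lower (both Kit clone probes, Slamf1 probe A and Itga2b), beside 13.3% and 13.2% of all probes. Against WT, the Atmp38dKO-labelled array had 2 higher (both Cd48 probes) and 1 lower (Procr), beside 14.7% and 14.6%. Between both mutants, 3 were higher (both Kit clone probes and Cd48 probe B) and 1 lower (Procr), beside 13.3% and 13.6%. For AtmsKO against WT, counted at any size, 9 marker probes were higher and 7 lower (52.4% and 47.6% of all probes). The counts were 10 and 6 against WT on the Atmp38dKO-labelled array (50.4% and 49.6%), and 10 and 6 between both mutants (48.7% and 51.3%). The size of the marker differences was also that of the array. Their median without sign was 0.30, 0.21 and 0.27 in these comparisons, and that of all probes well above background on the arrays compared was 0.25, 0.27 and 0.25. The distance from the lowest to the highest array had a median of 0.47 over the marker probes and of 0.42 over 37241 probes, and it reached 2-fold in 1 marker probe and in 13.1% of all.

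The disagreement between probes of a marker was compared with that of other genes. Among 7688 genes with at least 2 probes well above background on all arrays, the median distance between the probes' log2 differences was 0.50, 0.51 and 0.50, and the probes were opposite in sign in 57.3%, 55.6% and 54.9% of genes. Of the 5 markers with several probes, 4 had probes of opposite sign for AtmsKO against WT, 2 for the Atmp38dKO-labelled array against WT and 3 between both mutants. Slamf1 was furthest apart for AtmsKO against WT, at 1.25, a distance that 13.9% of genes reached. Kit was 0.95 apart in that comparison and further between both mutants, where 16.8% of genes were as wide, against 24% in the first. At least 2-fold apart were 1 of 5 markers (Slamf1) for AtmsKO against WT, 0 for the Atmp38dKO-labelled array against WT and 1 (Kit) between both mutants, beside 22%, 22.1% and 19.8% of genes. The probes of Cd48, both dim, were only 0.30, 0.13 and 0.18 apart and of 1 sign throughout. Those of Flt3 (0.36, 0.004 and 0.36) and Cd34 (0.34, 0.33 and 0.02) were also close, but not of 1 sign in every comparison. Probes of 1 gene thus often disagreed on these arrays, and Kit and Slamf1 were wide but not outside what other genes gave.

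**Figure D3:**
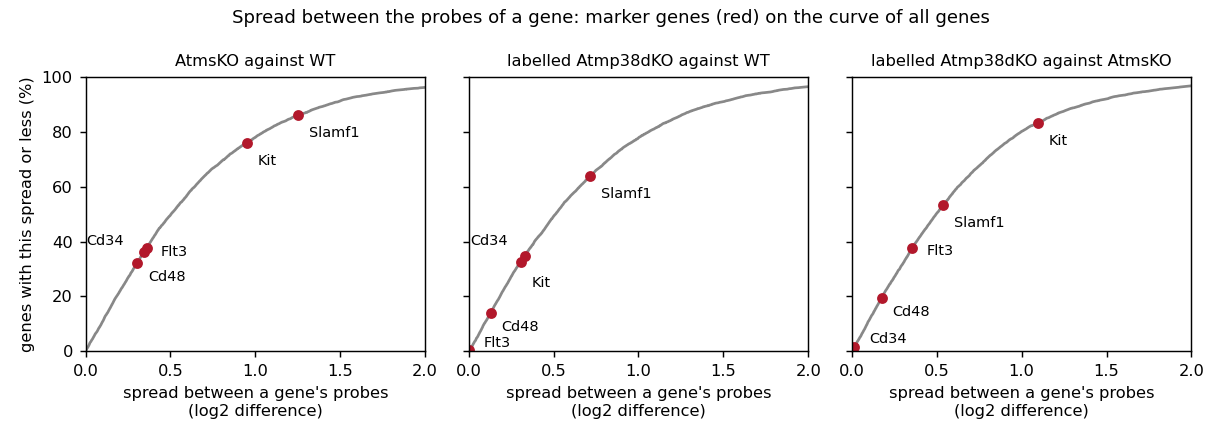
Share of 7688 genes (vertical axis, percent) whose probes lie no further apart than the log2 distance on the horizontal axis, for the 3 comparisons, with the markers that have 2 or more probes as red points on the curve. Slamf1 and Kit lie on the upper part of the curve for AtmsKO against WT, and Cd48 lies low in all 3 panels.

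The genes whose pattern lay closest to that of Cd48, the marker with the widest range among the markers' brightest probes (0.77), were Gm8884, Eomes and 4930546C10Rik. Their differences for AtmsKO and for the Atmp38dKO-labelled array against WT were 0.40 and 0.75, 0.39 and 0.81, and 0.35 and 0.80, beside 0.38 and 0.77 for Cd48 probe A. Likeness was the straight distance over both differences among 4362 genes of similar signal, and 26 of them lay within 0.1 of Cd48. With 3 arrays, and both differences sharing WT, such a match is a description.

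The ligands and partners of the markers were read next, each gene by its brightest probe. Stem cell factor (Kitl) read 7.99, 11.3 and 13.8, close to background. Flt3 ligand (Flt3l) read 270, 197 and 246, and the Tek ligand Angpt1 read 3159, 2868 and 3389. Integrin β3 (Itgb3), the partner of CD41, read 452, 489 and 608, and CD244 (Cd244a), which binds CD48, read 934, 965 and 1152. By these probes, none reached a 2-fold difference. The other Cd244a probe was well above background on the Atmp38dKO-labelled array alone (12.8), with a difference of 1.05 from WT after flooring. Of the 2 other Flt3l probes, 1 shared the direction against WT and 1 did not (30.8, 36.7 and 62.2).

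For AtmsKO against WT, 1 of 13 measured partners was at least 2-fold higher and 0 lower, beside 3.81% and 3.98% of all genes. It was Podxl, a sialomucin related to CD34, which was not well above background on the WT array, read 18.3 on the AtmsKO array and was at least 3.63-fold higher there. Its other probe gave no signal well above background from AtmsKO. For the Atmp38dKO-labelled array against WT, 4 of 14 partners were higher and 0 lower, beside 3.95% and 4.41% of all genes. Angpt2, the other angiopoietin, read 219, 280 and 523 (1.04 against WT), and Itgb2, the β2 integrin chain, read 305, 511 and 721 (1.02). In both genes AtmsKO lay between WT and the Atmp38dKO-labelled array, and both sat just past 2-fold.

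Cd2, the other receptor of CD48, was also among them. Its brightest probe read 180 on the Atmp38dKO-labelled array. Neither of the other arrays had it well above background, so it was at least 29.1-fold higher than on WT and at least 24.0-fold higher than on AtmsKO. The other Cd2 probe was not well above background on the Atmp38dKO-labelled array. In the comparison of both mutants, 1 of 14 partners was higher (Cd2) and 1 lower (Podxl), beside 3.7% and 3.62% of all genes.

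The families around the markers were counted beside the same shares of all genes. In the order higher and lower, AtmsKO against WT had 3.81% and 3.98%, with 3.95% and 4.41% for the Atmp38dKO-labelled array against WT, and 3.7% and 3.62% between both mutants. No measured member of the SLAM family and its adaptors reached 2-fold in any comparison, with 7, 8 and 7 of 10 genes measured and medians of 0.02, -0.02 and 0.06. Cd84, a receptor of that family, came nearest, with 51.2, 66.6 and 113 (0.93 for the Atmp38dKO-labelled array against WT). Of 11 Ly6 family genes, 1 was lower on both mutant arrays than on WT (Ly6k, at 15.4 on WT, not well above background on AtmsKO and 8.43 on the Atmp38dKO-labelled array) and 0 were higher, with medians of 0.01, -0.09 and 0.003. Of 23 genes of Kit and Flt3 signaling, the receptor gene Pdgfrb was the single one past 2-fold. It read 18.8, 76.2 and 25.1, with differences of 2.10 for AtmsKO against WT and -1.90 between both mutants. The medians of that list were 0.002, 0.08 and 0.05.

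Of 22 genes for other surface proteins that HSCs carry, among them Thy1, Cd27, Cxcr4 and Itga6, all were well above background on every array, 0 reached 2-fold in any comparison, and the medians were -0.02, -0.08 and -0.04. Of 16 HSC core genes, mostly transcription factors, all were well above background on every array as well. For AtmsKO against WT, 0 were higher and 1 lower (Ndn, at 255, 72.4 and 197, a difference of -1.74), beside 3.81% and 3.98% of all genes. For the Atmp38dKO-labelled array against WT, 0 were higher and 3 lower, which were Hoxb5 (91.4, 107 and 34.0), Fgd5 (198, 146 and 69.8) and Egr1 (25186, 20033 and 10604), beside 3.95% and 4.41%. Against AtmsKO, 1 was higher (Ndn) and 4 lower, the same 3 and Ctnnal1, beside 3.7% and 3.62%. The medians of the core genes were 0.02, -0.36 and -0.20, beside 0.01, 0.02 and -0.005 over all genes. With normexp, the listed genes at least 2-fold from WT on the Atmp38dKO-labelled array numbered 1 higher and 2 lower in all lists together, instead of 10 and 9.

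Genes that the lineage mixture or progenitor gates would exclude were also read. Of 10 such genes, 7, 8 and 8 were well above background (in the same order of arrays), and Il7r was on none. Their medians were 0.06, -0.08 and -0.04. Read by the brightest probe of each gene, Fcgr2b alone passed 2-fold, beside 3.95% of all genes higher in that comparison. It was not well above background on WT and was at least 2.03-fold higher on the Atmp38dKO-labelled array. Its other probe was also well above background on that array alone, at 5.52, near the lowest signal counted there (4.97). The difference of -0.16 for that probe rests on a WT value raised to the floor and gives no direction. Ptprc, which encodes CD45 and its lineage form B220, had 7 probes. The brightest read 1384, 1152.5 and 1516, but 2 dimmer probes, well above background on all arrays, passed 2-fold. One read 13.0, 14.3 and 32.7 (1.12 for the Atmp38dKO-labelled array against WT), and the other 40.4, 93.3 and 103 (1.28 for AtmsKO and 1.13 for the Atmp38dKO-labelled array against WT). Itgam, which encodes the lineage antigen Mac-1, read 33134, 32383 and 33895 on its brighter probe and 35.9, 43.9 and 53.8 on the other. Neither probe reached 2-fold, and cross-hybridization was not tested.

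**Figure D4:**
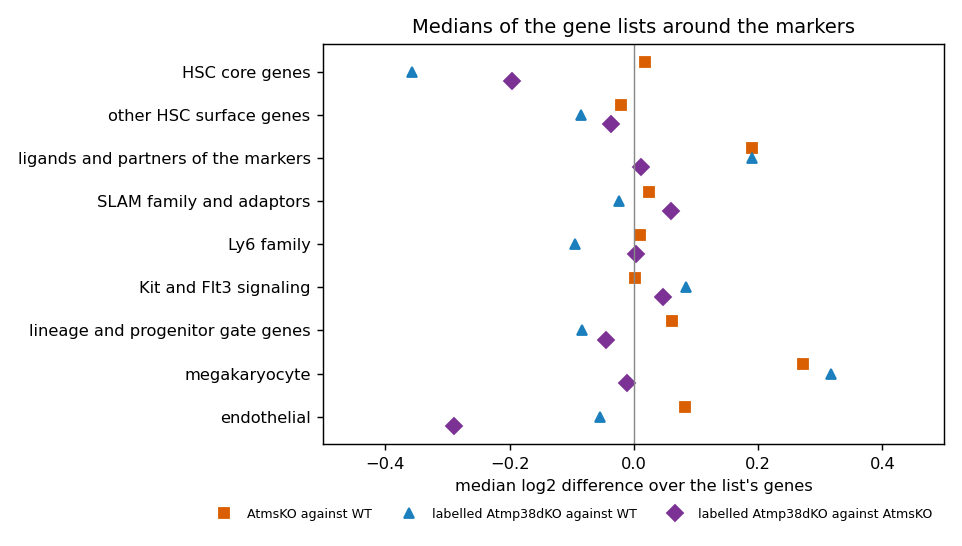
Median log2 difference (horizontal axis) over the genes of 9 lists, each gene by its brightest probe, for AtmsKO against WT (squares), labelled Atmp38dKO against WT (triangles) and labelled Atmp38dKO against AtmsKO (diamonds). The HSC core genes lie lowest for the Atmp38dKO-labelled array against WT (-0.36), and the other HSC surface genes lie within 0.1 of 0 in all 3.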

How the data were processed

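Long-term HSCs of WT, AtmsKO and Atmp38dKO mice were measured on 3 arrays, grouped by sample title. The authors deposited scanner intensity values per spot from Agilent Feature Extraction 11.5.1.1, background-subtracted and not normalized between arrays, and a table of log2 values that matched log2 of the mean processed signal minus a constant within 0.02 for 99.8%, 99.7% and 99.6% of probes (column medians -2.18, -2.22 and -2.17). RNA extraction, labeling and normalization were done by the authors' contractor.

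Control and outlier spots (57, 75 and 83) were removed, spots of a probe were averaged, log2 signals were centered on the array's 75th percentile, and dim values were raised to the lowest signal well above background (more than 50% of the probe's spots). Scaling removes changes in total RNA per cell. A 2-fold call needed a brighter array well above background. Feature Extraction's signal error was combined over both arrays. Markers were printed once each. Of all probes, 32991 were named through RefSeq accessions (assembly GRCm38.p6, names only). Genes were read by the probe of highest mean. The precision is limited by the number of arrays. Analyses used Python 3.11.15, pandas 2.3.3, numpy 2.4.6, matplotlib 3.10.9, R 4.3.3 and limma 3.58.1 (normexp, offset 50), and the functions were tested on simulated data.

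Named genes are all 10 markers, Atm and Mapk14, up to 4 genes per list past 2-fold (the results of some list members are not reported here), and the 3 genes most like the widest marker in both differences against WT. Kitl, Flt3l, Angpt1, Itgb3, Cd244a, Cd84, Itgam, Ptprc, Gm16897, Cdh5, Ptprb, Il7r and the surface genes given as examples were named after their values were seen. The 18 lists were hand-written, and members and lists were chosen with earlier results of these data known. Alternatives were normexp, quantile normalization, other scalings, the authors' log2 values, no floor, detection on both arrays, other folds and the median over a gene's probes. The authors' comparisons were not used.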

Additional observations from a re-analysis of the deposited data

How the results depend on the processing

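Of 48 log2 differences of marker probes, 46 kept their sign under normexp, quantile normalization, the other scalings, the authors' log2 values and no floor, and 2 did not (Procr for AtmsKO against WT, -0.04 to 0.02, and the Kit mRNA probe between both mutants, -0.08 to 0.04). Taking the median over a gene's probes changed the sign in 8 of 30 differences, among them Kit for AtmsKO against WT (0.14 to -0.65) and Slamf1 (-0.52 to 0.11). The count of marker probes at least 2-fold higher between both mutants, 1 as reported, was 2 with quantile normalization, the authors' values or a 1.5-fold threshold, and 0 with normexp or a 4-fold threshold. At 1.5-fold, AtmsKO against WT had 1 higher and 2 lower, and 2 were higher for the Atmp38dKO-labelled array against WT. Among listed genes, AtmsKO against WT had 7 higher and 6 lower, with 10 and 9 for the Atmp38dKO-labelled array against WT, and 6 and 12 between both mutants. With normexp they were 2 and 1, 1 and 2, and 1 and 4. At 4-fold they were 2 and 1, 2 and 1, and 1 and 2. At 1.5-fold they were 20 higher for AtmsKO against WT, 24 and 21 for the Atmp38dKO-labelled array against WT, and 15 and 27 between both mutants. Detection on both arrays gave 6 higher for the Atmp38dKO-labelled array against WT, and the authors' values or no floor gave 10 higher between both mutants. Why the counts moved was not tested. No paired analysis was possible because each genotype had 1 array. Dim probes such as those of Cd48 and Slamf1 probe B are limited by their signal over background.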

Other observations

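A probe named Gm16897 lies on the minus strand within the Cd34 locus at chr1:196782553-196782612 (mm9), opposite to the strand of Cd34. It read 18.4 (WT), 23.2 (AtmsKO) and 48.7 (Atmp38dKO-labelled array), with differences from WT of 0.41 and 1.19, whereas the Cd34 probes stayed within the scanner error. It was noticed after its values were seen.

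Markers of other blood and marrow cells were present at varying levels. Beside them, 3.81% to 4.41% of all genes passed 2-fold in a direction against WT. Between both mutants the shares were 3.7% higher and 3.62% lower. The lists are short, and their 2-fold calls are given as a description. Among megakaryocyte markers, Pf4 (1020, 2366 and 1536) and Vwf (102, 195 and 188) passed 2-fold for AtmsKO against WT, both higher. Only 1 of the 2 other Vwf probes shared that direction. Gp5 (82.3, 113 and 32.9) was lower on the Atmp38dKO-labelled array than on both others, and the medians were 0.27, 0.32 and -0.01. The endothelial medians were 0.08, -0.05 and -0.29. Kdr was higher on both mutant arrays than on WT, where it was near background, and Vwf was higher on AtmsKO. Plvap was lower on the Atmp38dKO-labelled array than on both others, and Kdr and Sox18 were lower there than on AtmsKO. Plvap was not well above background on the Atmp38dKO-labelled array, and Sox18 was well above background on AtmsKO alone (9.19). Myeloid progenitor genes gave no 2-fold difference (medians 0.26, 0.02 and -0.02), and neither did T cell genes (0.08, -0.003 and 0.05).

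Of 10 granulocyte genes (medians 0.19, -0.19 and -0.28), Retnlg was lower on the Atmp38dKO-labelled array than on AtmsKO. Of the lymphoid progenitor genes (-0.18, -0.33 and 0.04), Vpreb1 was lower on both mutant arrays than on WT. It read 32.7 on WT and 16.1 on the Atmp38dKO-labelled array, and was not well above background on AtmsKO. The B cell genes had medians of -0.02, -0.06 and 0.10. The macrophage list (-0.18, -0.31 and -0.21) held C1qc, higher on both mutant arrays, and Adgre1, lower on both, with Vcam1 lower on the Atmp38dKO-labelled array. C1qc was not well above background on WT, and Adgre1 was not on the Atmp38dKO-labelled array. The calls were 1 higher and 1 lower of 8 measured macrophage genes for AtmsKO against WT. They were 1 and 2 of 8 for the Atmp38dKO-labelled array against WT. For the Atmp38dKO-labelled array against WT, the 1 other detected probe of C1qc and that of Vcam1 did not share the direction. The erythroid list (0.03, 0.46 and 0.35) had 10 measured genes. Alas2 was higher on both mutant arrays, from 6.50 on WT, close to the lowest signal counted there (5.33). Car1 was lower on AtmsKO than on both others. The other Car1 probe did not share the direction for AtmsKO against WT. The mast cell and basophil list (0.16, 0.30 and 0.07) held Mcpt8 and Prss34, higher on the Atmp38dKO-labelled array than on WT, which were 2 of 8 measured genes. Mcpt8 was not well above background on WT or AtmsKO, and Prss34 read only 6.79 on WT. The stromal list (0.27, 0.03 and 0.02) held Pdgfrb, higher on AtmsKO, and Cxcl12, lower on the Atmp38dKO-labelled array than on AtmsKO.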
